A study of Mus musculus with 8 samples.

Results

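BorKnockIn, a mouse mutant in which the boundary between the Kcnj2 and Sox9 domains was removed from its place and sequence was inserted close to Sox9, was compared with ∆BorC1, which lacks the boundary and carries no such insertion. Chromatin contacts were read from 1 capture Hi-C library of each genotype, over chr11:110920001-113030000 (mm9), from Kcnj2 to the far edge of the domain that holds Sox9. This window holds 22366 of the 172578 pairs of 10 kb bins in a map. After bins at the edited places were left out (8 of 211), 20303 pairs at least 20 kb apart could be compared in matched order. Capture Hi-C ligates DNA ends that lie close together in the nucleus, enriches a chosen region and counts read pairs joining each pair of places.

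A topologically associating domain is a stretch of chromosome whose parts touch each other more often than they touch the neighbouring stretch. Its boundaries commonly hold binding sites of the zinc finger protein CTCF, at which cohesin, the ring complex that extrudes chromatin loops, is held up, and places where extrusion stops appear as focal contacts and as lines of raised contact in a map. Sox9 codes for a transcription factor on which cartilage depends, and its enhancers are spread over the large gene-poor region next to it. Kcnj2 encodes an inward rectifier potassium channel and lies at the other end of that region.

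The tissue was forelimb and hindlimb buds dissected from mouse embryos at E12.5. All libraries came from homozygous mutants made in a G4 embryonic stem cell background, and each pooled the limb buds of 3 to 8 embryos, as the study's design states. The labels name the genotypes as BorKnockIn and ∆BorC1, and other deletion mutants of the locus, ∆BorC1-2, ∆BorC1-4 and ∆CTCF, are given beside them to show how far libraries differ without the insertion. The label of ∆BorC1 also names C1, which the labels do not define and which the label of BorKnockIn does not carry, so effects of the insertion and of C1 cannot be told apart. A wildtype library was not analysed here.

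With 1 library per genotype there was no replicate check, and no test was made. Intervals are at the 95% level, hold for counting error alone and treat each read pair as independent of the others. BorKnockIn held 5944448 raw contacts and ∆BorC1 held 4901143, while the other deletion libraries ran from 4449078 to 9045698. In the window, pairs at least 20 kb apart held 1262293 contacts in BorKnockIn and 1107885 in ∆BorC1.

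The order of the sequence was read first from coverage, the share of a library's contacts that fall in each bin. Left of the original boundary the BorKnockIn profile followed that of ∆BorC1 at the same coordinates, with a correlation across 46 bins of 0.998. In the gene-poor region the same sequence lay 19 kb further left in BorKnockIn, where the correlation rose from 0.0570 at equal coordinates to 0.908 over 107 bins. To the right of 112.52 Mb in the BorKnockIn map the shift was 11 kb, and the correlation rose from 0.0317 to 0.872 over 50 bins. The 2 fitted shifts differ by 8 kb, which is taken here as the approximate extra length at the inserted site. The fit gives no error for it, and the labels do not state the inserted length. The bin at 111390001 to 111400000, where the boundary lay, held 4 contacts in ∆BorC1, and the 13844 contacts of BorKnockIn at that coordinate belong, by the shift, to other sequence. The maps were therefore aligned by whole bins, 20 kb in the gene-poor region and 10 kb to its right. All positions below are those of ∆BorC1 in mm9 unless they are called BorKnockIn's own.

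Cut at the original and at the inserted site, the window falls into 3 intervals. The Kcnj2 interval runs from 110.92 to 111.38 Mb (46 bins) and starts at Kcnj2. The desert runs from 111.43 to 112.50 Mb (107 bins, 111.41 to 112.48 Mb in BorKnockIn's own map). The Sox9 interval runs from 112.53 to 113.03 Mb (50 bins, 112.52 to 113.02 Mb in its own map) and holds Sox9 in its left part. Between Kcnj2 and Sox9, RefSeq (GRCm38) lists 1 protein-coding model, Gm11677, besides 5 long noncoding RNA models and 1 pseudogene, and its coordinates were not used.

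In BorKnockIn the desert was parted from the Sox9 interval, and each became more self-contained. Contacts between the desert and the Sox9 interval made up 19.7% of the window's contacts in ∆BorC1 (interval 19.6 to 19.7) and 12.0% in BorKnockIn (11.9 to 12.0), a ratio of 0.608 (0.605 to 0.612). The other deletion libraries stayed between 0.874 and 0.922 of ∆BorC1 for this block. Contacts within the desert took 41.3% in ∆BorC1 and 48.9% in BorKnockIn, a ratio of 1.19 (1.18 to 1.19). Those within the Sox9 interval took 14.3% and 17.1%, also a ratio of 1.19.

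The Kcnj2 interval, which does not touch the inserted site, was set further apart as well. Its contacts with the desert fell from 11.8% to 9.75% of the window, a ratio of 0.828 (0.822 to 0.834), where the other deletion libraries had 1.02 to 1.11. Its contacts with the Sox9 interval fell from 3.89% to 2.39%, a ratio of 0.614 (0.605 to 0.623), against 1.03 to 1.11 in the others. Within the Kcnj2 interval the share went from 9.08% to 9.92%, a ratio of 1.09. Each of the 3 blocks between intervals was thus lower in BorKnockIn and each of the 3 blocks within an interval higher. Since shares of one window add up to a fixed whole, a higher share in one block and a lower one in another are not independent.

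**Figure D1:**
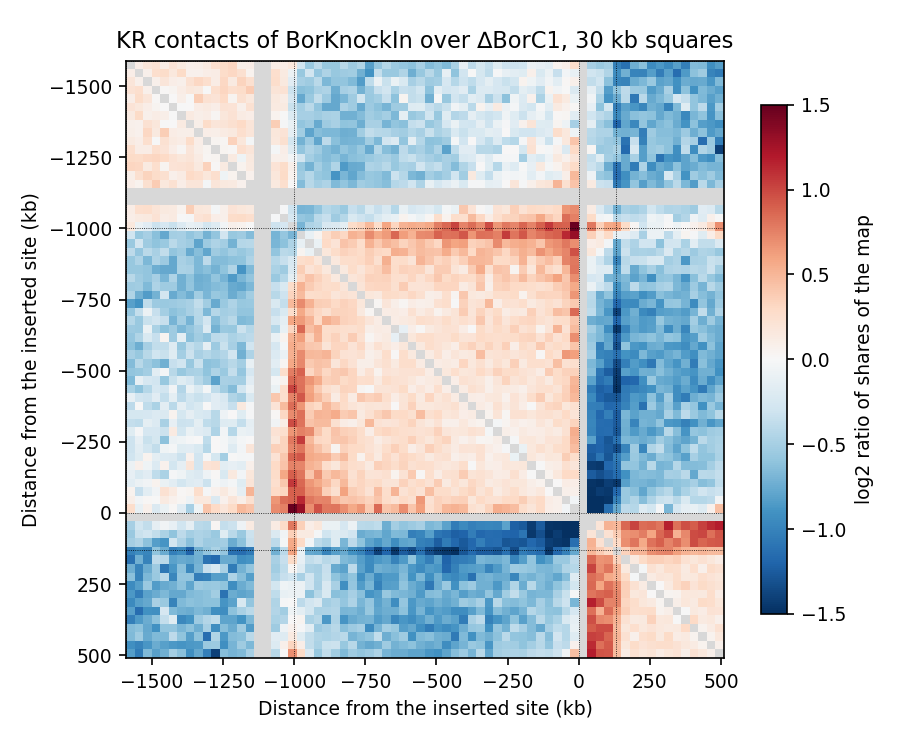
Ratio of balanced (KR) contacts of BorKnockIn over ∆BorC1 in 30 kb squares, as log2 of shares of the whole map, with both axes in kb from the inserted site; dotted lines mark Kcnj2, the inner desert place, the inserted site, Sox9 and the right edge, and grey squares were left out. The square between the inner desert place at -1000 kb and the inserted site is red inside and bounded by red lines, while the blocks that join it to either neighbour are mostly blue.

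The loss between the desert and the Sox9 interval was largest close to the insertion. For pairs 20 to 100 kb apart, 3223 contacts in ∆BorC1 stood against 1195 in BorKnockIn, and the ratio of shares of the map was 0.321 (0.300 to 0.343). It was 0.435 from 100 to 300 kb, 0.565 from 300 to 600 kb, 0.582 from 600 to 1000 kb and 0.767 beyond 1000 kb, so it came nearer to 1 with each class of distance. Distances are those of ∆BorC1, and in BorKnockIn the extra length at the inserted site, 8 kb by the fitted shifts, lies between such pairs. The ratios were not corrected for it, and its part in them was not tested. The gain inside the desert went the other way and grew with distance, from 1.09 at 20 to 100 kb through 1.15 and 1.25 to 1.48 at 600 to 1000 kb and 1.78 beyond, the last on 1323 against 644 contacts. Contacts inside the Sox9 interval rose likewise, from 1.09 to 1.23 and 1.55 in the 3 classes it spans. The gains were therefore largest among pairs that join the opposite ends of an interval.

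Strips of the desert showed where its ties to the neighbours were lost. Against the Sox9 interval, 9 of 11 strips (100 kb each, the last one shorter) had a ratio below 0.8, with the lowest at 112.03 to 112.13 Mb, 0.506. The other 2 lay at the far end: the strip at 111.43 to 111.53 Mb held 15474 contacts in BorKnockIn and 12892 in ∆BorC1, a ratio of 1.04 (1.01 to 1.06), and the next one stood at 0.836 (0.815 to 0.857). Against the Kcnj2 interval 6 of 11 strips were below 0.8, and here the ratio fell in a step, from 1.07 (1.05 to 1.09) at 111.43 to 111.53 Mb to 0.719 in the next strip and 0.618 at 111.63 to 111.73 Mb. From there it climbed back along the desert to 0.955 at 112.33 to 112.43 Mb and 1.06 in the last strip beside the insertion. Over all strips the other deletion libraries ran from 0.739 to 1.03 with the Sox9 interval and from 0.877 to 1.21 with the Kcnj2 interval.

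**Figure D2:**
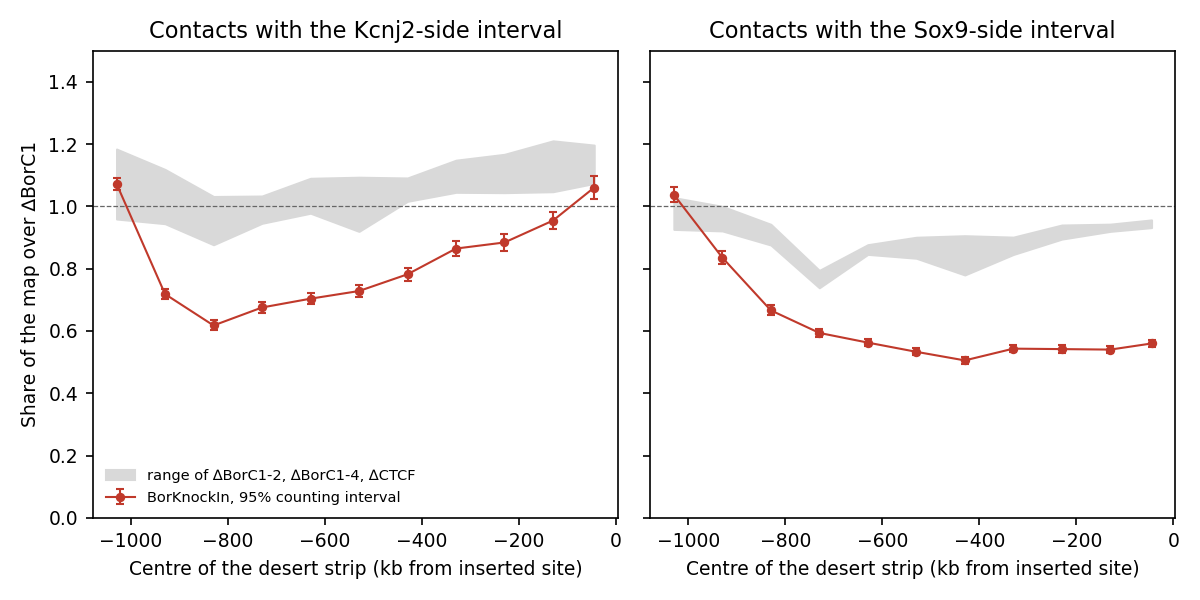
Contacts of strips of the desert with the Kcnj2 interval (left panel) and with the Sox9 interval (right panel), as the share of the map in BorKnockIn over that in ∆BorC1, against the strip's centre in kb from the inserted site; bars are 95% counting intervals and the grey band is the range of the other deletion libraries. On the left the ratio steps down from 1.07 in the first strip to 0.618 in the third and returns to 1.06, and on the right it falls from 1.04 to 0.594 in the fourth strip and stays between 0.506 and 0.594 from there on.

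In bins of 10 kb the step toward the Kcnj2 interval lay near 111.51 Mb. In balanced values, the ratio to ∆BorC1 of a bin's contacts with the Kcnj2 interval was between 1.04 and 1.19 in each of the 6 bins from 111.43 to 111.48 Mb. It was 0.818 in the bin at 111.51 Mb and between 0.645 and 0.734 in each of the 11 bins from 111.52 to 111.62 Mb. That bin stood out in the other direction too, since its contacts with the Sox9 interval rose to 1.40, from 1129 raw contacts in ∆BorC1 to 2554 in BorKnockIn. The first strip's ratio of 1.04 with the Sox9 interval was thus not uniform. In each bin from 111.43 to 111.47 Mb the balanced ratio with that interval was between 0.764 and 0.921, below all other deletion libraries. The short stretch between the original boundary and 111.51 Mb thus kept its contacts with the Kcnj2 interval, and the desert beyond it had fewer.

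The Sox9 interval itself was not uniform. The part between the insertion and Sox9 differed most: contacts of 112.53 to 112.58 Mb with the rest of the Sox9 interval rose to 1.62 times ∆BorC1 (1.59 to 1.65), and those of 112.58 to 112.63 Mb to 1.44. The strip that holds Sox9, 112.63 to 112.68 Mb, stood at 1.28, and the 7 strips beyond it between 1.11 and 1.16. Loss of contacts with the desert was deepest at 112.58 to 112.63 Mb, 0.495 (0.486 to 0.503), next to 0.511 in the strip of Sox9, and weakened to 0.705 at the right end. The first strip lost least to the Kcnj2 interval, 0.837, and the strip at the right end lost most, 0.516.

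Strips of the Kcnj2 interval, by contrast, all behaved alike. Their contacts with the desert stood between 0.787 and 0.860 of ∆BorC1 in the 9 strips of 50 kb, and those with the Sox9 interval between 0.547 and 0.645, lowest at Kcnj2 itself. Within the interval the ratio was 1.07 to 1.11.

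The insulation score gives the strength of a boundary at each position. It is the log2 of the mean balanced contact across the position within 200 kb, over the library's own mean, and a lower score means fewer contacts across. At the inserted site the score was -0.28 in ∆BorC1 and -1.56 in BorKnockIn, read at 112.53 Mb (112.52 Mb in its own map), a difference of -1.28. The other deletion libraries lay within -0.04 and -0.02 of ∆BorC1 there. At 275 positions in the unedited flanks BorKnockIn minus ∆BorC1 had a median of -0.04 and an SD of 0.04 and ran from -0.19 to 0.05. The difference stayed at or below -0.5 from 112.45 to 112.56 Mb, over 110 kb. The lowest score of the window in BorKnockIn was then at the inserted site. At the right edge of the Sox9 interval the score was -1.46 in ∆BorC1 and -1.32 in BorKnockIn. Scores at the inserted site lack the nearest pairs, because bins there were left out, and none were left out at the right edge. The depths of these 2 places therefore cannot be ranked.

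A further dip, with no counterpart in the 4 deletion libraries analysed, appeared inside the desert, about 1000 kb from the insertion. At 111.51 Mb (111.49 Mb in BorKnockIn's own map) the score went from 0.01 in ∆BorC1 to -0.58, a difference of -0.59, while the other deletion libraries were lower than ∆BorC1 by 0.02 to 0.09. This spot is called the inner desert place below. It was picked as the desert position, away from the insertion, with the largest fall in this comparison, so its values are a description. The difference was at or below -0.5 over 20 kb and at or below -0.25 from 111.45 to 111.55 Mb, a narrower zone than the one of 150 kb at the inserted site.

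Near the original boundary, absent from both maps, the score was -0.50 in ∆BorC1 and -0.68 in BorKnockIn at its lowest point, 111.41 Mb, a difference of -0.18. With a window of 100 kb this difference turned to 0.12, so no direction is given for it. At Sox9 the ∆BorC1 map had a dip of -0.97 that was shallower in BorKnockIn, -0.60, a difference of 0.38, and the other deletion libraries were lower than ∆BorC1 there by 0.15 to 0.21. With a window of 400 kb the difference at Sox9 was 0.060. The largest rise lay beside it at 112.65 Mb, where the score went from -0.97 to -0.44. Within the desert the largest rise was 0.30, at 111.69 Mb, where the other deletion libraries were also above ∆BorC1, by 0.04 to 0.11. At 111.76 Mb the score of ∆BorC1-2 was 0.21 above ∆BorC1, against 0.24 in BorKnockIn. Over the 211 positions of the window the median difference was 0.10.

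**Figure D3:**
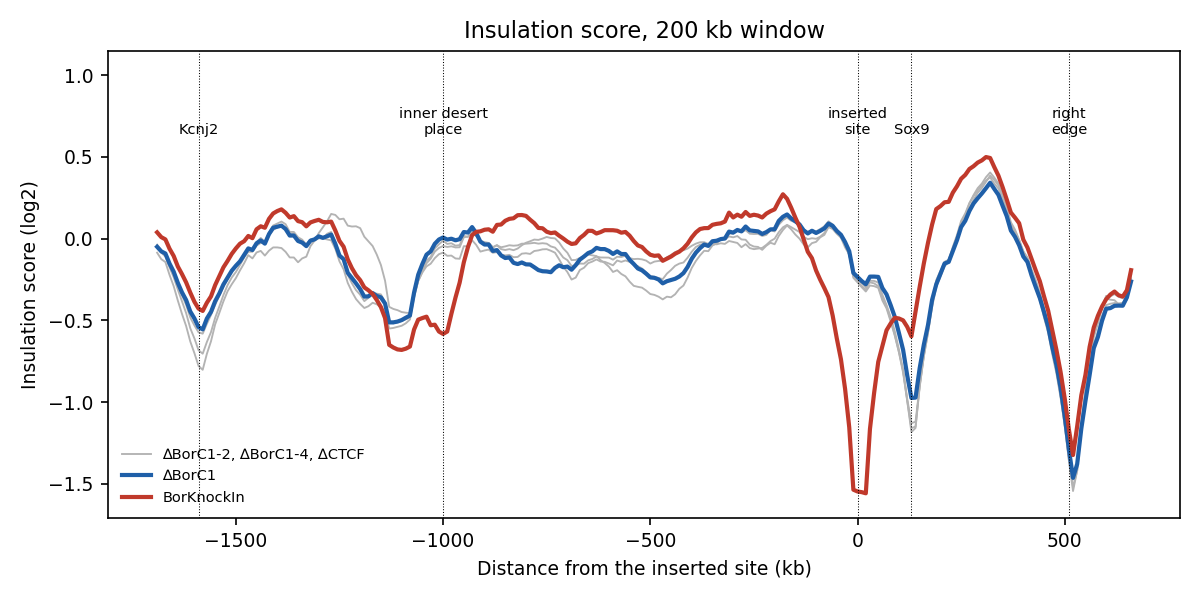
Insulation score (log2, 200 kb window) against distance from the inserted site in kb, in BorKnockIn (red), ∆BorC1 (blue) and the other deletion libraries (grey). BorKnockIn has a minimum of -1.56 at the inserted site and a second fall to -0.58 at the inner desert place, at which the blue and grey lines stay near 0, and its dip at Sox9 is shallower.

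Contacts across the insertion were also counted directly. Of all contacts within and between the 400 kb on each side, 26.8% crossed the site in ∆BorC1 (26.7 to 27.0) and 14.1% in BorKnockIn (14.0 to 14.2), a ratio of 0.526 (0.521 to 0.531). The other deletion libraries had 24.7% to 26.3%. With 200 kb on each side the share went from 31.8% to 14.7%, and with 100 kb from 35.2% to 14.3%. The measure taken in the same way at 150 positions in the flanks gave a ratio with a median of 0.992 and a range of 0.944 to 1.04. Contacts across the site were fewer but not absent, and 48341 of them still crossed it within 400 kb in BorKnockIn.

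Seen from the inserted site, a 30 kb window there (112.50 to 112.53 Mb) held contacts in 2 focal places, one on each side. This window consists of bins that were left out of the comparison in matched order. In BorKnockIn they include extra sequence, so values from the inserted site, here and below, do not compare like sequence. Contact over expected is the number of contacts divided by the library's own mean at that distance. Toward the inner desert place it was 1.70 in ∆BorC1 (230 contacts, interval 1.49 to 1.93) and 11.5 in BorKnockIn (1765 contacts, 10.9 to 12.0), 6.75 times higher (5.89 to 7.75). Toward the right edge of the Sox9 interval, 113.02 Mb, it was 1.18 (307 contacts) and 6.66 (2089 contacts), 5.63 times higher (5.00 to 6.35). For the same pairs the other deletion libraries were 1.02 to 1.11 and 0.886 to 0.958 times ∆BorC1. The window at the inserted site drew 55594 contacts in all in BorKnockIn and 36505 in ∆BorC1. That at the inner desert place drew 60841 in BorKnockIn and 40046 in ∆BorC1. In balanced values, which remove such differences in coverage, the ratios were 5.08 and 4.95.

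Single bins showed that these contacts were focal. From the inserted site in BorKnockIn, the bin at 111.51 Mb reached 16.6 times the expectation (858 contacts), against 4.46 at 30 kb to its left and 3.60 at 30 kb to its right. In ∆BorC1 the same bin stood at 1.46 (66 contacts) in raw counts, no higher than the bins next to it at 1.95 and 1.69. In balanced values it stood at 1.60 in ∆BorC1, slightly above the bins next to it at 1.53 and 1.30. The bin at 111.47 Mb had 1.93 there. The balanced value of the bin at 111.51 Mb in BorKnockIn was 10.2. On the other side the bin at 113.02 Mb stood at 10.4 (1091 contacts) in BorKnockIn, with 3.12 at 30 kb to its left and 2.38 at 30 kb to its right, and at 1.45 (126 contacts) in ∆BorC1. Both peaks were 1 bin wide at their top.

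These partners also met each other. Contact of the inner desert place with the right edge, on opposite sides of the insertion, was 3.47 (282 contacts) in ∆BorC1 and 7.53 (669 contacts) in BorKnockIn, 2.17 times higher (1.89 to 2.49), or 1.96 in balanced values. The peak bin was 113.02 Mb in both maps, at 5.25 in ∆BorC1 and 11.6 in BorKnockIn. The inserted site, the inner desert place and the right edge were therefore pairwise enriched in BorKnockIn, and the last 2 were in contact above expectation without the insertion.

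Lines of raised contact ran from these places as well. From the inserted site, 9 of 21 windows of 50 kb in the desert were at least 1.5-fold higher over expected than in ∆BorC1, with the highest, 4.63, at 111.47 Mb, and 8 of 10 in the Sox9 interval, with the highest, 3.19, at 112.97 Mb. In balanced values these counts were 5 and 6. Such counts of windows, here and for Sox9 below, were not made over the whole map or in the other deletion libraries. How often a window passes 1.5-fold without the insertion is therefore not given. The windows next to the insertion went the other way, 0.512 at 112.42 Mb on its left and 0.736 at 112.53 Mb on its right. In the desert 1 window was at least 1.5-fold lower, and 3 were in balanced values. The desert's share of the site's contacts was 50.2% in ∆BorC1 and 42.6% in BorKnockIn, a ratio of 0.849 (0.837 to 0.861). The share of the Sox9 interval was 26.0% and 32.0%. From the inner desert place, 15 of 21 desert windows (12 in balanced values) were at least 1.5-fold higher. None was lower by that much, and the ratio rose along the desert to 3.37 at 112.47 Mb. Toward the Kcnj2 interval, 8 of its 9 windows were below 1, the lowest at 0.790. The raised line of the inner desert place was thus seen on its right, toward the insertion, and not on its left.

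**Figure D4:**
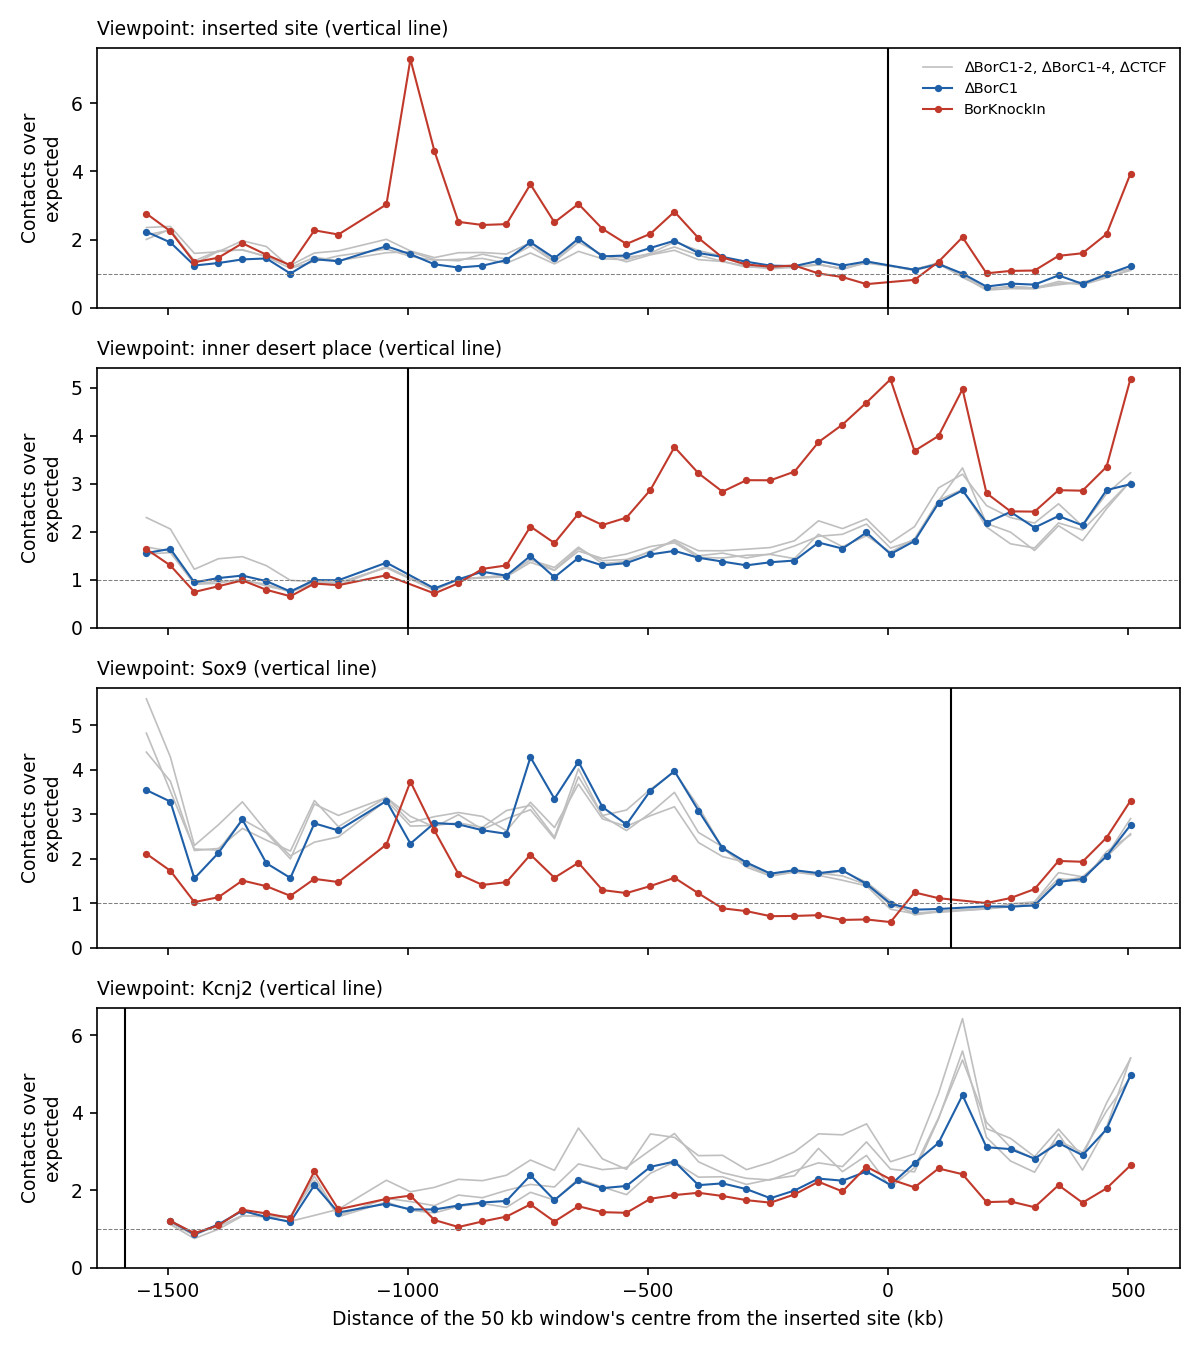
Contacts over expected of 30 kb windows at the inserted site, the inner desert place, Sox9 and Kcnj2 with windows of 50 kb along the region, against their distance from the inserted site in kb, for BorKnockIn (red), ∆BorC1 (blue) and the other deletion libraries (grey). The inserted site gains a peak at -1000 kb and one at the right edge, Sox9 falls below ∆BorC1 across nearly the whole desert, and Kcnj2 falls over the Sox9 interval.

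Sox9 had fewer contacts with the desert in BorKnockIn and more within its own interval. The share of its contacts that lay in the desert was 43.2% in ∆BorC1 (42.7 to 43.6) and 23.7% in BorKnockIn (23.3 to 24.1), a ratio of 0.550. In the other deletion libraries it was 39.3% to 40.9%. The share in the Sox9 interval rose from 30.7% to 46.5%, a ratio of 1.51 (1.49 to 1.54), and that in the Kcnj2 interval fell from 6.84% to 4.28%, a ratio of 0.625. By contact over expected, 19 of 22 windows in the desert were at least 1.5-fold lower, with the lowest at 112.37 Mb, 0.361. The only desert window above 1 was that at 111.47 Mb, 1.59 (1.29 in balanced values), which holds the inner desert place.

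Past the insertion, one place went against this loss. The contact of Sox9 with the inner desert place was 2.99 in ∆BorC1 (345 contacts) and 5.32 in BorKnockIn (669 contacts), 1.78 times higher (1.56 to 2.03), or 1.51 in balanced values. Its contact with the inserted site itself was 0.954 (672 contacts) and 2.37 (2077 contacts), 2.48 times higher (2.27 to 2.71). Toward the right edge, on its own side of the insertion, it was 3.13 (1046 contacts) and 3.40 (1369 contacts), and the ratio of 1.08 had an interval of 1.00 to 1.17.

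Kcnj2 lost contact with the far side. Of its contacts, 7.73% lay in the Sox9 interval in ∆BorC1 (7.49 to 7.97) and 4.31% in BorKnockIn (4.14 to 4.49), a ratio of 0.558, against 8.15% to 8.87% in the other deletion libraries. In the desert it had 21.2% and 17.5%, and in its own interval 22.4% and 25.4%. Contact of Kcnj2 with Sox9 was 4.66 times the expected in ∆BorC1 (330 contacts, 4.17 to 5.20) and 2.40 in BorKnockIn (173 contacts, 2.05 to 2.78), a ratio of 0.514 (0.428 to 0.618). It was higher in the other deletion libraries, 5.74 to 7.52, than in ∆BorC1. With the right edge Kcnj2 went from 6.05 (326 contacts) to 2.47 (141 contacts), a ratio of 0.408 (0.335 to 0.497).

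Toward the inserted site, however, the contact of Kcnj2 was not lower: it stood at 2.59 in ∆BorC1 (199 contacts) and 3.38 in BorKnockIn (282 contacts), a ratio of 1.31 (1.09 to 1.57), or 1.17 in balanced values. The other deletion libraries, at 0.912 to 1.10 times ∆BorC1, overlap this interval. A place left of the original boundary, at 111.32 Mb, followed Kcnj2. It is called the left dip, after a shallow local low of the insulation score in ∆BorC1 (-0.35). BorKnockIn had no local low there (-0.30), as its score fell further toward the boundary, and ∆CTCF stood at 0.01. With Sox9 the contacts over expected of the left dip stood at 0.562 times ∆BorC1 (218 and 128 contacts). With the right edge they stood at 0.494 (177 and 92 contacts). With the inserted site they went from 1.03 (114 contacts) to 1.81 (215 contacts), a ratio of 1.76 (1.40 to 2.21). Here ∆CTCF too was below ∆BorC1, at 0.729 with Sox9 and 0.626 with the right edge. Pairs on the left, Kcnj2 with this dip, Kcnj2 with the inner desert place and the dip with the inner desert place, had ratios of 1.10, 1.12 and 0.970, each with a counting interval that includes 1.

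**Figure D5:**
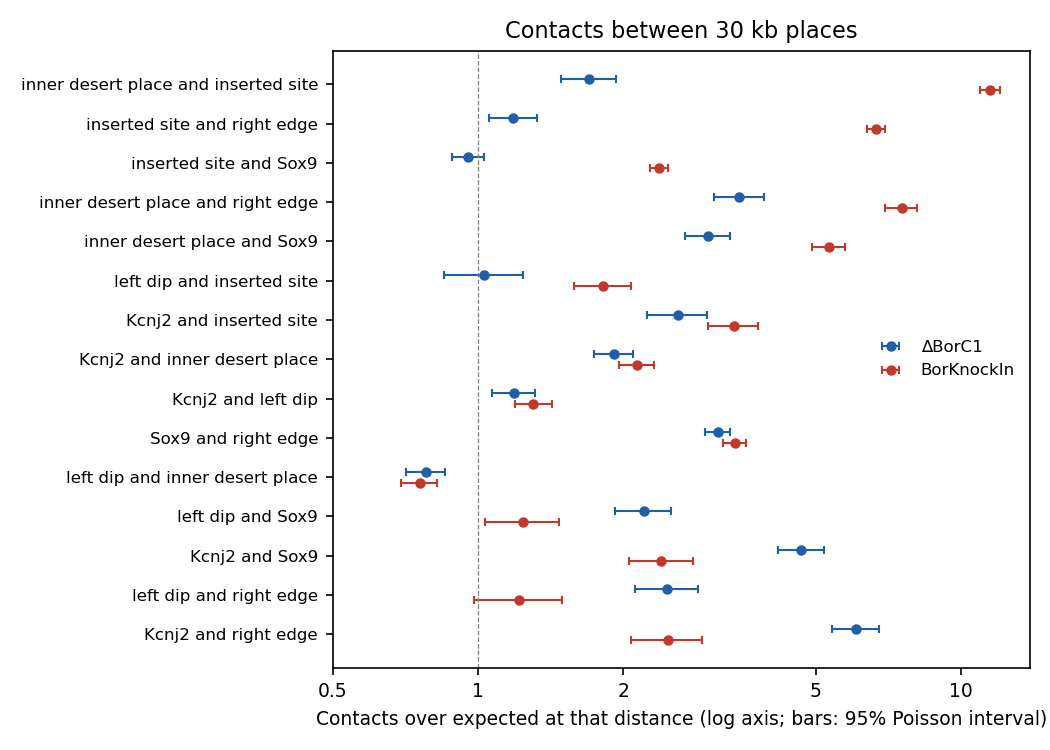
Contacts between 30 kb places over the library's own mean at that distance (log axis) in ∆BorC1 (blue) and BorKnockIn (red), with 95% Poisson intervals for counting error, ordered by their ratio. The inserted site with the inner desert place (1.70 and 11.5) and with the right edge (1.18 and 6.66) lead, and pairs of Kcnj2 or the left dip with Sox9 or the right edge are lower in BorKnockIn.

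Pairs of 50 kb bins gave a count over the window. A pair was called when its share of the map differed at least 1.5-fold and it held at least 100 contacts in either library. In the window 251 of 781 pairs were lower in BorKnockIn (32.1%) and 50 were higher (6.40%), beside 10.3% lower and 4.43% higher over the whole map. The lower pairs were 148 of 219 between the desert and the Sox9 interval, 68 of 90 between the Kcnj2 and Sox9 intervals and 35 of 198 between the Kcnj2 interval and the desert, and no pair within an interval was among them. Of the higher pairs, 33 of 210 lay in the desert, 16 of 36 in the Sox9 interval and 1 between them. None of the 28 pairs in the Kcnj2 interval was called.

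Calls were not confined to the window. Among pairs with 1 end in it, 121 were lower and 128 higher (13.0% together). Higher pairs were thus about as frequent there as inside the window, where they made up 6.40%. Lower pairs were rarer there than inside the window, where they made up 32.1%. Called gains were therefore not particular to the window, while called losses were concentrated in it. Of 1372 pairs with both ends outside, 47 were lower and 2 higher (3.57% together). Over the whole map the other deletion libraries had 0.308% (∆BorC1-2), 0.977% (∆BorC1-4) and 1.42% (∆CTCF) called in either direction against ∆BorC1, and in the window at most 1 pair each.

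The extreme pairs, named by their bin starts, lay along the same lines. Across the insertion, 112.37 with 112.57 Mb fell from 2387 contacts in ∆BorC1 to 1029 in BorKnockIn, a log2 ratio of shares of -1.42, followed by 112.37 with 112.62 Mb at -1.39. The highest pairs of that block both had an end in the bin of the inner desert place, 111.47 Mb, at 0.84 with 112.52 Mb (442 and 913 contacts) and 0.53 with 112.97 Mb. The highest pairs within the desert joined its ends, 1.48 for 111.47 with 112.47 Mb (310 and 997 contacts) and 1.28 for 111.52 with 112.47 Mb. Its lowest, -0.44 for 111.42 with 111.67 Mb and -0.39 for 111.42 with 111.62 Mb, lay on either side of the inner desert place.

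Within the Sox9 interval the insertion and the right edge were joined, at 1.20 for 112.52 with 112.97 Mb (831 and 2201 contacts) and 1.03 for 112.52 with 112.92 Mb, while pairs from 112.67 Mb to those same bins stood at 0.03 and 0.04. Between the Kcnj2 interval and the desert, both lowest pairs shared the bin at 111.67 Mb, at -0.86 with 111.27 Mb (860 and 549 contacts) and -0.81 with 110.97 Mb. Both highest pairs of this block shared the bin at 112.47 Mb beside the insertion, at 0.56 with 111.32 Mb and 0.38 with 111.17 Mb. Neither passed 1.5-fold. The other deletion libraries were also above ∆BorC1 at these pairs, at 0.12 to 0.29 and at 0.12 to 0.20. Between the outer intervals the lowest pairs had an end in the bin of Kcnj2, 110.92 Mb, at -1.09 with 112.97 Mb (658 and 357 contacts) and -1.06 with 112.77 Mb. The highest there had an end at 112.52 Mb, at 0.04 with 111.32 Mb and -0.20 with 111.02 Mb. Within the Kcnj2 interval the named pairs ran from 0.03 to 0.27.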

How the data were processed

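Raw values are the authors' deposited counts of read pairs joining 2 bins of 10 kb. Balanced values (Knight-Ruiz, KR) are a signal that the authors derived from these counts, by the deposited files' names. They are not a number in 4 bin pairs of ∆BorC1. Bowtie2 2.2.6, Juicer and mm9 are named in the submitters' processing notes. Read filters, and the genome sequence behind the BorKnockIn map, were not given in the sources used here.

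From these values, shares, ratios, insulation and expected contact were computed in Python 3.11.15 with pandas 2.3.3 and numpy 2.4.6, intervals with scipy 1.17.1 and figures with matplotlib 3.10.9. Shares have exact Clopper-Pearson intervals, ratios log-normal intervals and contact numbers exact Poisson intervals. For expected contact, distances in the deletion maps that span the deleted boundary were shortened by 20 kb. Flank positions lie at least 300 kb outside the window. Pairs of 50 kb bins needed at least 3 kept bins of 10 kb on each side and at least 1 bin of 50 kb between them.

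General knowledge of mm9 put Kcnj2 at 110920001 to 110930000 and Sox9 at 112640001 to 112650000. The named pairs are the 2 highest and 2 lowest of each block, at least 200 kb apart (100 kb in intervals shorter than 600 kb). The places, intervals and measures were chosen with earlier results of these data known. The calculation was tested on simulated data, in which BorKnockIn was shifted by the same whole bins that the matching uses. That simulation therefore cannot test the shift itself or the extra inserted length. Alternatives are given in the closing section. Inversion libraries were not used here, and no mm9 sequence is printed.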

Additional observations from a re-analysis of the deposited data

How the results depend on the processing

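Of 131 alternative values over 28 results, 62 stayed within counting or flank error, 68 moved beyond it and 1 turned. For every such value the cause was not tested. The difference in insulation at the original site, -0.18, turned to 0.12 with a 100 kb window and was -0.38 with 400 kb, -0.11 with raw counts and -0.11 with thinned raw counts. At the inserted site (-1.28) it became -1.62 with 100 kb and -0.97 with 400 kb. At the inner desert place (-0.59) it became -0.64 with 100 kb, -0.52 with 400 kb, -0.45 with raw and -0.45 with thinned raw counts, and at Sox9 (0.38) it became 0.51 with 100 kb and 0.060 with 400 kb.

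Block ratios kept their side of 1 throughout. In the order desert with Sox9, Kcnj2 with desert, Kcnj2 with Sox9, then within desert, Sox9 and Kcnj2 intervals, they became 0.621, 0.821, 0.634, 1.16, 1.25 and 1.11 with KR values, 0.640, 0.861, 0.642, 1.30, 1.37 and 1.17 for pairs at least 100 kb apart, and 0.599, 0.815, 0.605, 1.17, 1.17 and 1.08 as shares of the whole map. Those that moved with no shift were 0.614, 0.796, 0.604, 1.20 and 1.17 (not within Kcnj2), with an overlap-weighted shift 0.603, 0.819, 1.19, 1.20 and 1.08 (not Kcnj2 with Sox9), and with no bins left out 0.638, 0.888, 0.659, 1.16 and 1.12 (not within Sox9). Contacts across the insertion (0.526) became 0.461 with 200 kb on each side and 0.543 with no shift.

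For Sox9, the ratios of its desert, Kcnj2 and Sox9 shares became 0.526, 0.591 and 1.58 with KR values and 0.478, 0.465 and 1.80 with a 10 kb window. With no bins left out its share in its own interval became 1.58, and that of Kcnj2 in the Sox9 interval became 0.592. Pairs with places of 5 by 5 bins were 5.56 (inserted site with inner desert place), 4.47 (inserted site with right edge), 1.96 (inserted site with Sox9), 1.85 (inner desert place with right edge) and 1.56 (inner desert place with Sox9). With KR values they were 5.08, 4.95, 2.13, and 1.51 for the last, and Sox9 with the right edge was 1.19.

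Called 50 kb pairs, 251 lower and 50 higher, became 37 and 7 at 2-fold and 66 and 11 with 100 kb bins, where fewer pairs (190) were tested. At 2-fold, 4.74% of the window's pairs were lower, beside 1.18% over the whole map. The higher ones were 0.896% beside 0.837%, so at that cutoff gains were about as frequent over the whole map. With 100 kb bins, 34.7% were lower beside 6.79%, and 5.79% higher beside 2.45%. Scores over the flank mean and contacts as shares without an expected value were chosen after seeing the data, and moved nothing beyond error. No paired analysis was possible because each genotype has 1 library. Depth limits the pairs of places, where Kcnj2 with Sox9 rests on 173 and 330 contacts and the dip at 111.32 Mb with the right edge on 92 and 177, and no setting gives the spread between embryos or libraries of 1 genotype.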
